A study of Arabidopsis thaliana with 31 samples.

Results

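The methylome of *uvr3 phrI* leaves was described here through all differentially methylated regions (DMRs) listed between 24h upon UV-C exposure and time point 0. The lists held 2811 DMRs, out of 24655 for the 5 genotypes of the series, and all were kept. They comprised 431 hyper-DMRs, with a higher methylation level at 24h, and 2380 hypo-DMRs, with a lower level at 24h. The plants carried the T-DNA insertions WiscDsLox334H05 and WiscDsLox466C12 in the Col-0 background and lacked both photolyases. They were grown in vitro, and leaves labelled as 18 days old were taken 24h after 3000 J/m2 of UV-C, or at time point 0, which the methods place immediately after the same dose. Whole-genome bisulfite sequencing (WGBS) was made on 1 library per time point, each pooling the leaves of 2 biological replicates. WT, *ddb2* (allele *ddb2-3*), *dcl4* (*dcl4-2*) and *ago1* (*ago1-27*) plants of the same ecotype, dose and times were used only for comparison at the same regions.

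Photolyases reverse UV lesions directly with the energy of light. PHR1 acts on cyclobutane pyrimidine dimers and UVR3 on 6,4-photoproducts, so that plants without both depend on excision repair. Plant cytosines are methylated in CG, CHG and CHH contexts, where H is any base but G. CHH methylation is not symmetric between strands and has to be set anew after replication, by CMT2 in the body of long transposable elements (TEs) of heterochromatin and by RNA-directed DNA methylation (RdDM) with DRM2 at short TEs and at TE ends. It keeps TEs silent, and *ONSEN* (ATCOPIA78), a copia element known to respond to heat, is one of the best studied of them.

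With 1 library per time point no difference has a replicate check, and no test between time points or genotypes was made. The direction and the smallest change of each DMR (10 points of percent methylation for CHH, 20 for CHG and 40 for CG) were set by the calling, so the levels are a description. The lists give no reads per region, and the depth behind a level is unknown. Intervals are 95% intervals, exact (Clopper-Pearson) for shares, exact Poisson for densities and from order statistics for medians, and cover counting error only.

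The sequences below show the DMRs that bound the data, read from the plus strand of the TAIR10.1 reference. Capitals mark the cytosines in CHH context, as C on the printed strand and as G where the cytosine is on the other strand. The first pair comes from the same TE name, ATREP10D, with the largest loss of all DMRs and the largest gain of that name.
ATREP10D copy AT2TE22780, lower at 24h, chr2:5643751-5643950: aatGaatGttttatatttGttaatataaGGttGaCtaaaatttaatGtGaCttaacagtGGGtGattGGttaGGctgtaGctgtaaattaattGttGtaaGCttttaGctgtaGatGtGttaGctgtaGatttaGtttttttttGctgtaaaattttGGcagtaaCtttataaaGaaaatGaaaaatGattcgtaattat
ATREP10D copy AT2TE28485, higher at 24h, chr2:6994351-6994650: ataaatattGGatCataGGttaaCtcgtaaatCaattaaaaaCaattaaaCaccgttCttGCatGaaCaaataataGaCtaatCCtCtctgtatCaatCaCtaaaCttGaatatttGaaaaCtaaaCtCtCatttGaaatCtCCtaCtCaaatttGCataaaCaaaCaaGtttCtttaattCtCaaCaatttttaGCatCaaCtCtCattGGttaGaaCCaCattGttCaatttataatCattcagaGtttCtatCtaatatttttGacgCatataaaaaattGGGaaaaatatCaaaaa
The next pair is from ARNOLDY2, with the largest gain of all DMRs and the largest loss of that name.
ARNOLDY2 copy AT4TE09190, higher at 24h, chr4:1867701-1867900: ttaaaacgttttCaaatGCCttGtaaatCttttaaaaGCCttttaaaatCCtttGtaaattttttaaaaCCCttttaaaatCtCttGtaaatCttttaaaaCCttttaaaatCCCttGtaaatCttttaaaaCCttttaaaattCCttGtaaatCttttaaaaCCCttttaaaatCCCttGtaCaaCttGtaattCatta
ARNOLDY2 copy AT3TE54245, lower at 24h, chr3:13260451-13260700: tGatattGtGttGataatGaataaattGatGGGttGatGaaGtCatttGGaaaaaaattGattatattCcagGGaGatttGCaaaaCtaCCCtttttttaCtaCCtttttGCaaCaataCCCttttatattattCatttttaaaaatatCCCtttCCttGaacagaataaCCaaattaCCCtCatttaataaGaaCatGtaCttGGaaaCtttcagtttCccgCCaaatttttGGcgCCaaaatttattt
The next is the region with the highest level at time point 0, in an ATREP3 element.
ATREP3 copy AT4TE44220, lower at 24h, chr4:9762001-9762200: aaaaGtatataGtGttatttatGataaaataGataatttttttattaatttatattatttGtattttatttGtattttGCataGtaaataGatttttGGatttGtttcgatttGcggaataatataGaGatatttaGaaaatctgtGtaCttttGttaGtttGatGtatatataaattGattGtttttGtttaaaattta
The last pair is from *ONSEN*, a long copy with the largest loss and a short fragment with the only gain.
ATCOPIA78 copy AT1TE71045, lower at 24h, chr1:21525101-21525300: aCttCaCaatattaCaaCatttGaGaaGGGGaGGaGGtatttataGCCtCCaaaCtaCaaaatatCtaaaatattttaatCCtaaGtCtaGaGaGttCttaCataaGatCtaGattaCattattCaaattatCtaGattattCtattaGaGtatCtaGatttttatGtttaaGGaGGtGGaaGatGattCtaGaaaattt
ATCOPIA78 fragment AT2TE26505, higher at 24h, chr2:6483601-6483800: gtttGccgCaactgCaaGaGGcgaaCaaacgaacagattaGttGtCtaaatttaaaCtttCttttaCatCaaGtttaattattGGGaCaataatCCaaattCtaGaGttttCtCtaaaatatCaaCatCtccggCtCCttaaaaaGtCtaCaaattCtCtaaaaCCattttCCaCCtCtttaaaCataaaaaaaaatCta

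In AT2TE22780, a 1119-bp ATREP10D copy, the 200-bp region had a CHH level of 3.71% at 24h and 71.3% at time point 0, a difference of -67.6 points. It holds 37 CHH cytosines, of which 15 are in the CAA or CTA sites that CMT2 is known to prefer. The region of AT2TE28485, a 505-bp copy of the same name, had 26.9% at 24h and 3.90% at time point 0 and holds 68 CHH cytosines. The ARNOLDY2 region with the largest gain, 93 bp from the end of a 1222-bp copy, had 47.6% at 24h and 6.57% at time point 0. Its sequence is a short unit rich in A and T repeated many times, with 43 CHH cytosines, 9 of them in CAA or CTA sites. The ARNOLDY2 region with the largest loss lay 1210 bp inside a 2780-bp copy and had 15.9% at 24h and 57.4% at time point 0. The ATREP3 region had 22.9% at 24h and 85.1% at time point 0. It is the poorest in sites of the 7 sequences, with 27 CHH cytosines in 200 bp, 66.7% of them in CAA or CTA.

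The *uvr3 phrI* list leaned to loss. Hypo-DMRs made up 84.7% (83.3 to 86.0%) of its DMRs, against 3.51% for *ddb2*, 4.93% for *dcl4*, 48.0% for *ago1* and 44.5% (42.3 to 46.8%) for WT plants. These shares compare 1 pair of libraries per genotype and were not tested. The WT library of the earlier time point held far fewer mapped reads than the other libraries, and its part in the WT share was not tested. Of the 2811 DMRs, 2803 were in CHH context, 8 in CHG and 0 in CG. The 431 hyper-DMRs had a median CHH level of 23.6% (22.4 to 24.8%) at 24h and 8.61% (8.15 to 9.13%) at time point 0. The 2372 CHH hypo-DMRs had 14.5% (14.1 to 14.95%) at 24h and 29.98% (29.3 to 30.6%) at time point 0. The median change was 13.97 points in hyper-DMRs and -13.8 points in hypo-DMRs, so the lists differed in number and in starting level more than in the size of the change.

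**Figure D1:**
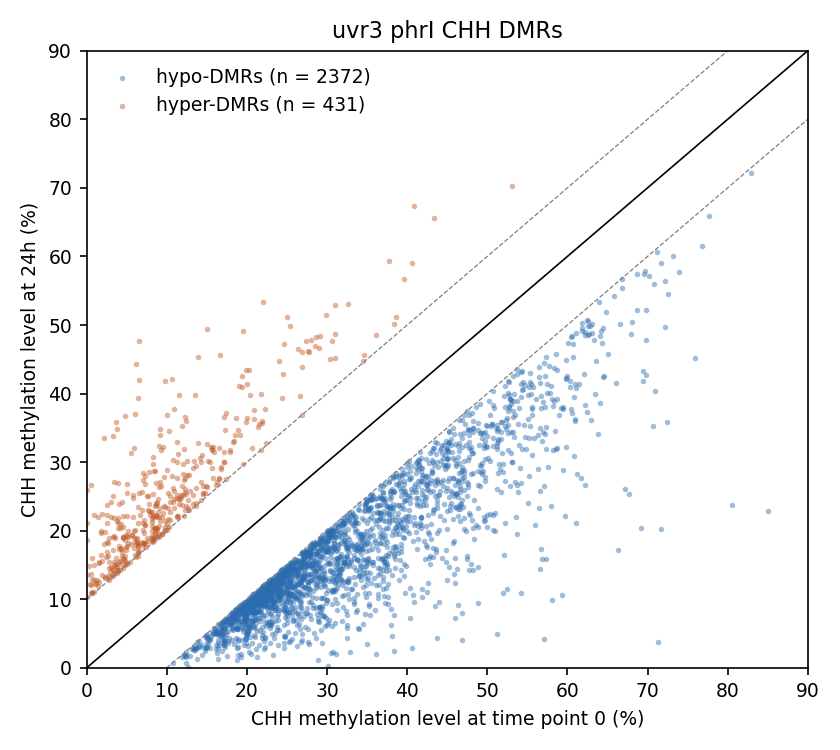
CHH methylation level at 24h (%, vertical axis) against the level at time point 0 (%, horizontal axis), 1 point per CHH DMR, for the 2372 hypo-DMRs and 431 hyper-DMRs. The solid line marks equal levels and the dashed lines the minimum change of 10 points. Hypo-DMRs crowd along the lower dashed line between 20 and 40% and hyper-DMRs start mostly below 20%.

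Both lists ended just past the minimum. The smallest listed loss was -10.0014 points (AT5TE64080, 9.09% at 24h and 19.1% at time point 0), the smallest gain 10.0005 points (AT3TE40425, 23.6% at 24h and 13.6% at time point 0), and regions below the minimum are not listed. A change of at least 20 points was found in 420 hypo-DMRs and 72 hyper-DMRs, and one of at least 40 points in 19 and 1. Less than 25% of the starting level was left in 181 hypo-DMRs (7.63%, 6.59 to 8.77%). No hypo-DMR reached 0 at 24h, the lowest level there being 0.119%, while 5 hyper-DMRs were listed at 0 at time point 0. Most regions were short. The median length was 200 bp for hyper-DMRs and 250 bp for hypo-DMRs, and the longest was a 750-bp hypo-DMR at chr3:11099351-11100100, which overlapped AT3TE46170 (TAG2) and AT3TE46175 (VANDAL18NB) with its midpoint outside both.

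The 8 CHG DMRs were all hypo-DMRs, and each had the coordinates of a CHH hypo-DMR. The widest CHG change was in AT5TE03885 (VANDAL2N1), with 32.7% at 24h and 62.7% at time point 0 in CHG and 28.0% at 24h and 55.2% at time point 0 in CHH. At the 750-bp region, CHG was 52.5% at 24h and 74.3% at time point 0, and CHH 24.3% at 24h and 39.6% at time point 0. Another 2 lay in ATGP1 elements. AT3TE51505 had a CHG level of 46.8% at 24h and 66.9% at time point 0, and AT3TE52415 one of 15.9% at 24h and 38.6% at time point 0. The others were in AT3TE45170 (ATHATN7), AT3TE60550 (ATENSPM6), AT4TE19910 (ATHILA0_I) and, outside TEs, at chr4:15066601-15066850. Their CHG levels lay between 33.0 and 48.5% at 24h and between 56.5 and 69.4% at time point 0.

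The share of methylation that was left went with the level at time point 0. From 20 to 30% at time point 0, the bin with the most hypo-DMRs (925), the median level at 24h was 11.4% and 47.8% of the starting level was left. From 40 to 50% the 343 hypo-DMRs kept 60.5% (27.1% at 24h against 44.98% at time point 0), and from 60 to 70% the 72 hypo-DMRs kept 72.6% (47.3% at 24h against 63.0% at time point 0). The minimum of 10 points ties both quantities, since a region that starts at 20% can keep at most 50% and be listed. The 5 largest losses kept little of their level, which follows in part from their choice by the size of the loss. Of the 3 hypo-DMRs that started above 80%, AT4TE44220 and AT4TE06880, both ATREP3, kept 26.9% and 29.5% of their level, while the other one had 72.2% at 24h and 82.9% at time point 0 and kept 87.1%, the highest share of all hypo-DMRs. AT2TE26570 (ATREP1) kept 7.36% (4.20% at 24h and 57.1% at time point 0), and AT1TE31770 (ATREP3) kept 28.2% (20.2% at 24h and 71.7% at time point 0). The 5 largest losses, which with these include AT2TE22780, were all in ATREP elements.

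**Figure D2:**
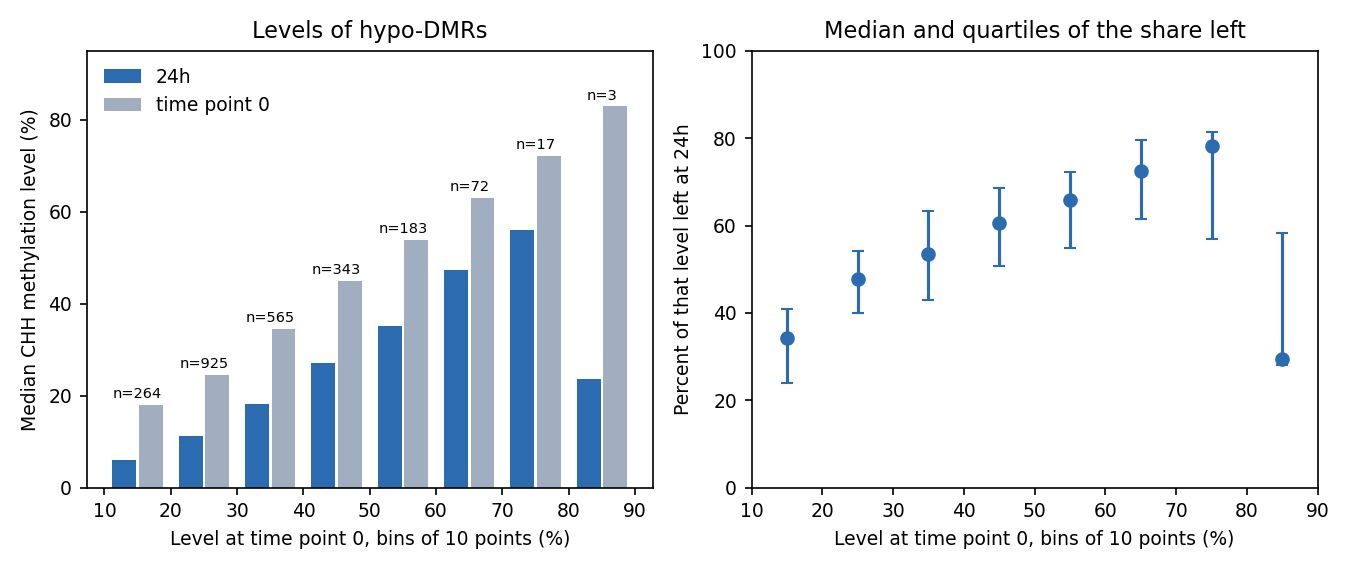
Left, median CHH level of hypo-DMRs (%) at 24h and at time point 0 by the level at time point 0 in bins of 10 points, with the number of hypo-DMRs. Right, the percentage of the starting level left at 24h (points, median; bars, quartiles). From 20 to 30% a median of 47.8% was left and from 60 to 70% one of 72.6%, while the last bin holds 3 regions.

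The starting level also differed with position. The pericentromere was taken as the gene-poor stretch around each centromere, 18.6% of the genome. It held 46.2% (44.2 to 48.2%) of the hypo-DMRs and 49.2% (44.4 to 54.0%) of the hyper-DMRs. Over all sequence this is 49.5 hypo-DMRs per Mb there and 13.2 per Mb in the arms. Counted in TEs and per Mb of TE sequence, the order was the reverse. Pericentromeric TEs held 56.0 hypo-DMRs and 10.4 hyper-DMRs per Mb, and TEs of the arms 85.1 and 14.2. Pericentromeric hypo-DMRs had 11.7% at 24h and 25.02% at time point 0, with 46.3% (45.6 to 47.2%) left. Those of the arms had 19.2% at 24h and 35.9% at time point 0, with 55.3% (54.1 to 56.4%) left. In the lowest bin, 10 to 20% at time point 0, 70.1% of the hypo-DMRs were pericentromeric, and from 60 to 70% it was 12.5%. Pericentromeric hyper-DMRs had 22.04% (20.9 to 23.3%) at 24h and 8.14% at time point 0, those of the arms 25.6% (24.2 to 27.6%) at 24h and 9.11% at time point 0. By chromosome, the density was 18.3 to 23.9 hypo-DMRs and 2.85 to 4.77 hyper-DMRs per Mb.

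TEs, which cover 20.03% of the genome, held the midpoint of 68.6% (66.7 to 70.4%) of the hypo-DMRs and 66.4% (61.7 to 70.8%) of the hyper-DMRs. A further 27 hypo-DMRs and 2 hyper-DMRs were in genes annotated as TE genes outside the TEs. Hypo-DMRs in TEs had 15.5% at 24h and 31.0% at time point 0, those in intergenic sequence 12.3% at 24h and 27.5% at time point 0. DMRs outside TEs were still close to them. Of 746 such hypo-DMRs, 28.4% had a TE within 200 bp of their midpoint and 56.8% within 1 kb, and of 145 hyper-DMRs 35.9% and 71.7%, whereas 6.01% and 22.2% of all bases outside TEs are that close.

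Of 31189 TEs, 4.55% held a hypo-DMR and 0.914% a hyper-DMR. The elements were grouped by their names. Measured per Mb of TE sequence, all TEs together held 68.1 hypo-DMRs (64.9 to 71.5) and 12.0 hyper-DMRs (10.6 to 13.5). SINE elements, short retroelements that use the machinery of others, had the highest density, 414 hypo-DMRs per Mb (290 to 573), from 36 hypo-DMRs. hAT elements, a family of DNA transposons, had 133 per Mb (102 to 172), and the elements outside the named groups 135 per Mb (117 to 154). VANDAL and ATMU elements, Mutator-like DNA transposons, had 89.7 per Mb (78.4 to 102), and 7.79% of their copies were hit. At the low end were CACTA elements (ATENSPM), with 33.7 per Mb (23.8 to 46.2), HELITRON elements with 50.4 (41.9 to 60.1) and ATREP elements, most of them short non-autonomous helitrons, with 53.4 (47.4 to 60.03). ATHILA elements, the gypsy-type elements that fill the pericentromere, had 57.6 per Mb (50.7 to 65.1), and 7.56% of their copies were hit.

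**Figure D3:**
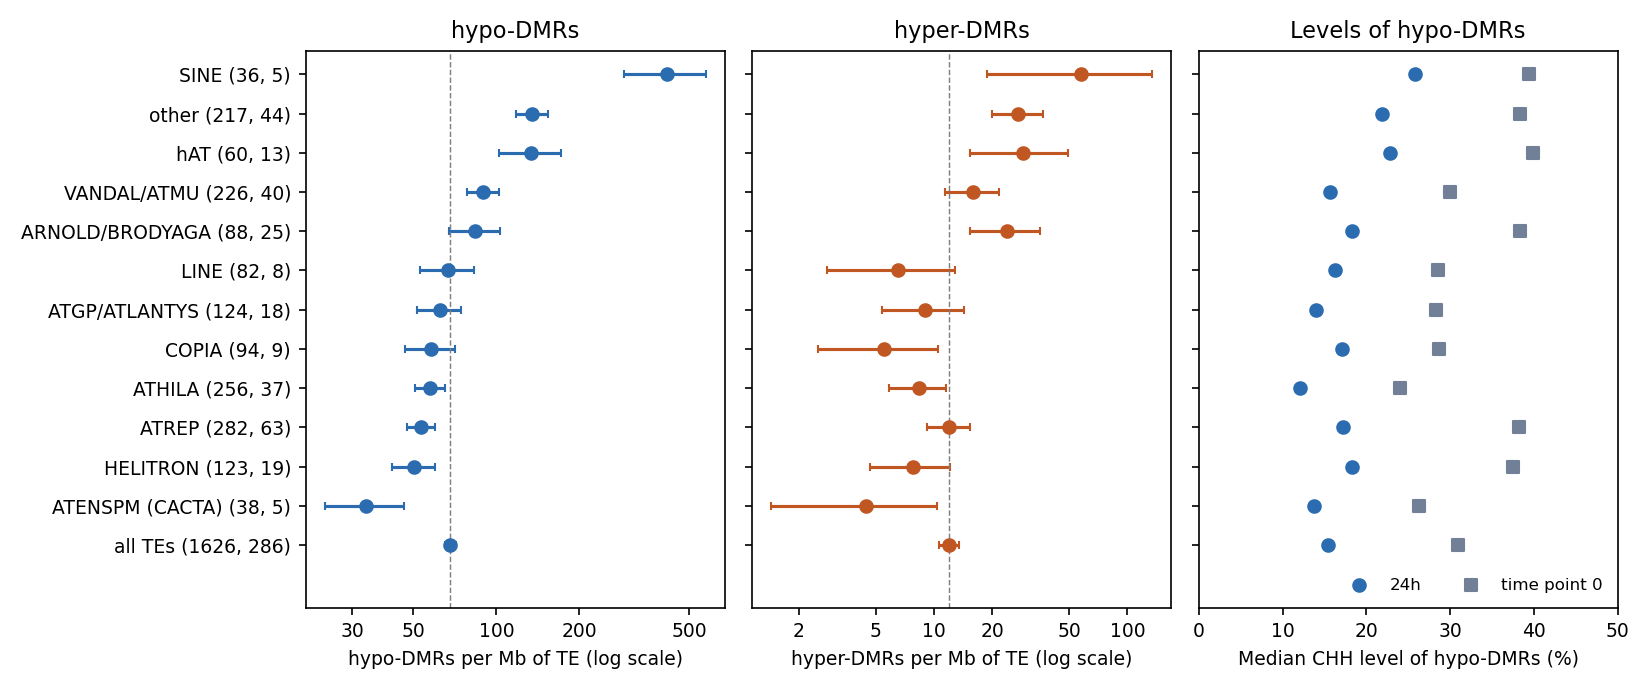
DMRs per Mb of TE sequence by TE group (log axes, left and middle, bars are exact Poisson 95% intervals, dashed line all TEs) and median CHH level of the hypo-DMRs at 24h and at time point 0 (right). Numbers after each name count hypo-DMRs and hyper-DMRs. SINE elements reach 414 hypo-DMRs per Mb against 33.7 in CACTA elements, and ATHILA elements have the lowest levels at both times.

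The order of the groups depended on the size of the change and on the zone. Relative to all TEs, the hypo-DMR density was 0.784 in ATREP, 0.739 in HELITRON and 0.845 in ATHILA elements. Among losses of at least 15 points it was 1.37 (1.19 to 1.56) in ATREP, 1.08 (0.855 to 1.35) in HELITRON and 0.301 (0.214 to 0.412) in ATHILA elements. ATREP hypo-DMRs thus were fewer per Mb but larger, with 17.2% at 24h and 38.2% at time point 0 and a median change of -19.2 points. ATHILA hypo-DMRs were small, with 12.1% at 24h and 24.0% at time point 0 and a median of -11.5 points, just past the minimum. The VANDAL and ATMU ratio of 1.32 was 1.04 (0.843 to 1.28) within the pericentromere and 1.70 (1.43 to 2.02) in the arms, where these elements held 145 hypo-DMRs per Mb. The CACTA ratio of 0.494 was 0.357 within the pericentromere and 1.25 (0.751 to 1.95) in the arms.

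The largest losses of the larger groups apart from ATREP were unlike in size. HELITRONY1B (AT2TE17040) had 10.7% at 24h and 59.4% at time point 0, and ARNOLDY1 (AT4TE17760) 9.89% at 24h and 58.1% at time point 0. A VANDAL8 fragment (AT4TE15910) had 15.9% at 24h and 56.8% at time point 0, and an ATGP1 fragment (AT2TE06480) 26.9% at 24h and 54.2% at time point 0. In ATHILA elements no loss was larger than the -25.5 points of AT4TE17070 (ATHILA2), with 10.8% at 24h and 36.4% at time point 0.

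Hyper-DMRs were densest in some of the same groups. They were densest in SINE (57.5 per Mb, 18.7 to 134, from 5 hyper-DMRs), hAT (28.9, 15.4 to 49.4) and ARNOLD and BRODYAGA elements (23.8, 15.4 to 35.2) among the named groups, and sparsest in CACTA (4.43, 1.44 to 10.3) and COPIA elements (5.52, 2.53 to 10.5). ARNOLD and BRODYAGA elements reached the highest level apart from SINE, 34.2% at 24h and 12.1% at time point 0. Of 320 TE names in the annotation, 218 had a hypo-DMR and 117 a hyper-DMR, and 9 had hyper-DMRs only. After the ARNOLDY2 region shown above, the largest gains were in AT3TE50295 (ARNOLD2, 44.4% at 24h and 6.14% at time point 0), in AT1TE50760 (ATREP18, 49.4% at 24h and 15.1% at time point 0) and in intergenic sequence at chr1:17655951-17656200 (41.9% at 24h and 6.50% at time point 0) and chr2:4331601-4331800 (39.4% at 24h and 6.44% at time point 0). The longest hyper-DMR, 450 bp of the VANDAL13 element AT2TE20045, had 39.6% at 24h and 26.6% at time point 0.

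Some TE names reached higher densities than their groups, and those after the first 3 are named here with their values seen. ATGP1, a gypsy-type element, held the most hypo-DMRs of any name, 80 in 53 of its 144 copies (212 per Mb), with 15.6% at 24h and 30.7% at time point 0. HELITRONY3 followed with 78 (21.98% at 24h and 41.6% at time point 0) and ATHILA2 with 74 (13.0% at 24h and 25.2% at time point 0). META1 had 39 hypo-DMRs in 27 of 138 copies and 8 hyper-DMRs, and its hypo-DMRs kept 69.0% of their level. Among the 21 hypo-DMRs of ATREP10D a median of 34.3% was left (11.6% at 24h and 37.7% at time point 0), and among the 18 of ATREP11 33.5%. Both names were less dense than the ATREP group, with 22.2 and 39.3 hypo-DMRs per Mb against 53.4. ARNOLDY2 had 23 hypo-DMRs (18.04% at 24h and 46.01% at time point 0) and 9 hyper-DMRs (40.98% at 24h and 17.1% at time point 0). SIMPLEHAT1 stood out in both directions, with 16 hypo-DMRs (22.8% at 24h and 40.8% at time point 0) and 6 hyper-DMRs (24.9% at 24h and 5.08% at time point 0). ATSINE4 had 17 hypo-DMRs in 98 copies, and SIMPLEGUY1 27 hypo-DMRs and 0 hyper-DMRs.

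DMRs were found in long TEs more often than in short ones when counted per copy. Of TEs of at least 4000 bp, 28.3% held a hypo-DMR and 5.67% a hyper-DMR, while of those under 500 bp 1.62% and 0.276% did. The median TE with a hypo-DMR was 1305 bp long, against 309 bp for all TEs. Per Mb the order turned. TEs under 500 bp held 90.7 hypo-DMRs per Mb (81.0 to 101.2) and those of at least 4000 bp 59.6 (54.4 to 65.1), and hyper-DMRs were at 15.5 (11.6 to 20.2) and 8.66 (6.77 to 10.9). Long TEs are mostly pericentromeric. In the arms, TEs of at least 4000 bp held 99.1 hypo-DMRs per Mb and those under 500 bp 89.6, and in the pericentromere 47.8 and 92.6, so that long TEs were below short ones in the pericentromere and not in the arms, a difference that was not tested. Hypo-DMRs of TEs of 1000 to 2000 bp had 17.5% at 24h and 36.6% at time point 0, those of TEs of at least 4000 bp 14.5% at 24h and 27.7% at time point 0.

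Within TEs of at least 1000 bp the ends were favoured. Of 1071 hypo-DMRs there, 274 (25.6%, 22.99 to 28.3%) had their midpoint within 200 bp of a TE end, where an even spread over the same TEs would place 15.9%. For the 176 hyper-DMRs the share was 23.3% (17.3 to 30.2%) against 17.0%, and with 300 bp as the edge the ratio to even spread was 1.21 (0.942 to 1.496), an interval that includes 1. End regions started higher. Hypo-DMRs at edges had 21.2% (19.4 to 23.2%) at 24h and 38.5% (35.2 to 40.6%) at time point 0, those in the body 14.1% (13.4 to 14.5%) at 24h and 27.9% (27.2 to 28.7%) at time point 0. The share left was 56.9% (55.2 to 59.0%) at edges and 51.0% (50.3 to 52.1%) in the body. Hyper-DMRs at edges had 30.01% at 24h and 11.2% at time point 0, those in the body 24.4% at 24h and 9.13% at time point 0.

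**Figure D4:**
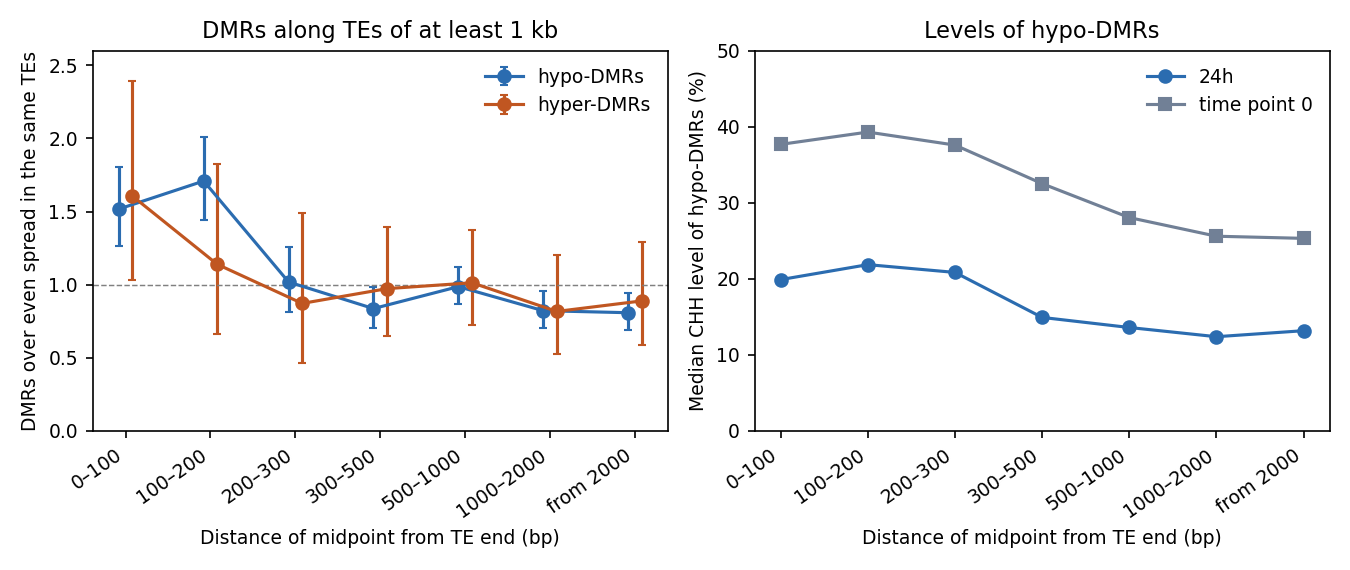
Left, hypo-DMRs and hyper-DMRs in TEs of at least 1000 bp by distance of the midpoint from the nearer TE end (bp), as a ratio to an even spread over the same TEs (bars, exact Poisson 95% intervals). Right, median CHH level (%) of the hypo-DMRs at 24h and at time point 0. The ratio for hypo-DMRs is 1.52 and 1.71 in the first 200 bp and 0.808 beyond 2000 bp, and both levels are lower towards the body.

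The preference for ends was not shared by all groups. It was wide in TEs of at least 4000 bp (15.6%, 12.5 to 19.1%, against 6.05% for even spread), in hAT (67.9%, 47.6 to 84.1%, against 32.2%), COPIA (25.3%, 16.2 to 36.4%, against 9.29%), HELITRON (41.3%, 30.4 to 52.8%, against 23.5%) and ARNOLD and BRODYAGA elements (21 of 60, 23.1 to 48.4%, against 17.2%). In ATREP elements 22.7% (16.4 to 30.2%) of the hypo-DMRs were at edges, against 24.5%, and in ATHILA elements 14.5% (10.2 to 19.7%), against 12.1%. In TEs of 2000 to 4000 bp it was 18.3% (13.7 to 23.7%), against 14.9%. The intervals of ATREP elements, ATHILA elements and this length class include the even share.

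*ONSEN* hypo-DMRs are described copy by copy, and how well reads could be placed among the copies and between their ends was not tested. The annotation holds 24 ATCOPIA78 elements, 8 of them at least 4000 bp long. Of these 8, 7 held hypo-DMRs, 11 in all, with a median of 33.1% at 24h and 44.8% at time point 0. Of the 11, 1 had its midpoint within 200 bp of an end. In a wider division, chosen after the values were seen, the 7 DMRs with a midpoint 122 to 397 bp from an end had 26.2 to 56.5% at 24h and 39.4 to 72.2% at time point 0. The 4 that lay 638 to 2292 bp inside had 12.5 to 23.02% at 24h and 22.8 to 33.99% at time point 0, so the DMRs near ends and those inside did not overlap in their levels. AT1TE24850 had 56.5% at 24h and 72.2% at time point 0 near its left end, and 26.2% at 24h and 39.4% at time point 0 near its right end. AT3TE92525 had 41.3% at 24h and 54.7% at time point 0 on the left, and 42.6% at 24h and 57.2% at time point 0 on the right. AT1TE71045, shown above, had 49.7% at 24h and 72.2% at time point 0 at 205 bp from its end. AT5TE15240, whose DMR lay 2292 bp inside, had 13.1% at 24h and 23.7% at time point 0. None of the 16 shorter ATCOPIA78 copies held a hypo-DMR, and 1 of them, the 321-bp fragment AT2TE26505, held a hyper-DMR with 22.2% at 24h and 2.58% at time point 0. Among all TEs, 28.3% of those of at least 4000 bp held a hypo-DMR. The share was 1.62% under 500 bp and 4.05% from 500 to 1000 bp, so hits among short copies are rare in general.

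Most TEs were hit once. A single hypo-DMR was found in 1251 TEs, 2 in 136, 3 in 26, 4 in 5 and 5 in 1, and for hyper-DMRs 284 TEs held 1 and 1 held 2. Counting both directions, 3 TEs had 5 DMRs. The ATGP1 element AT4TE27915 had hypo-DMRs only, from 48.8% at 24h and 61.0% at time point 0 near its left end to 18.6% at 24h and 29.2% at time point 0 in its middle. The META1 element AT3TE70410 had a hypo-DMR at each end, with 43.8% at 24h and 58.4% at time point 0 on the left and 44.1% at 24h and 57.7% at time point 0 on the right. Its only hyper-DMR, 980 bp from the left end, had 17.8% at 24h and 6.43% at time point 0. The VANDAL8 element AT5TE34730 alternated, with 3 hypo-DMRs and 2 hyper-DMRs.

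**Figure D5:**
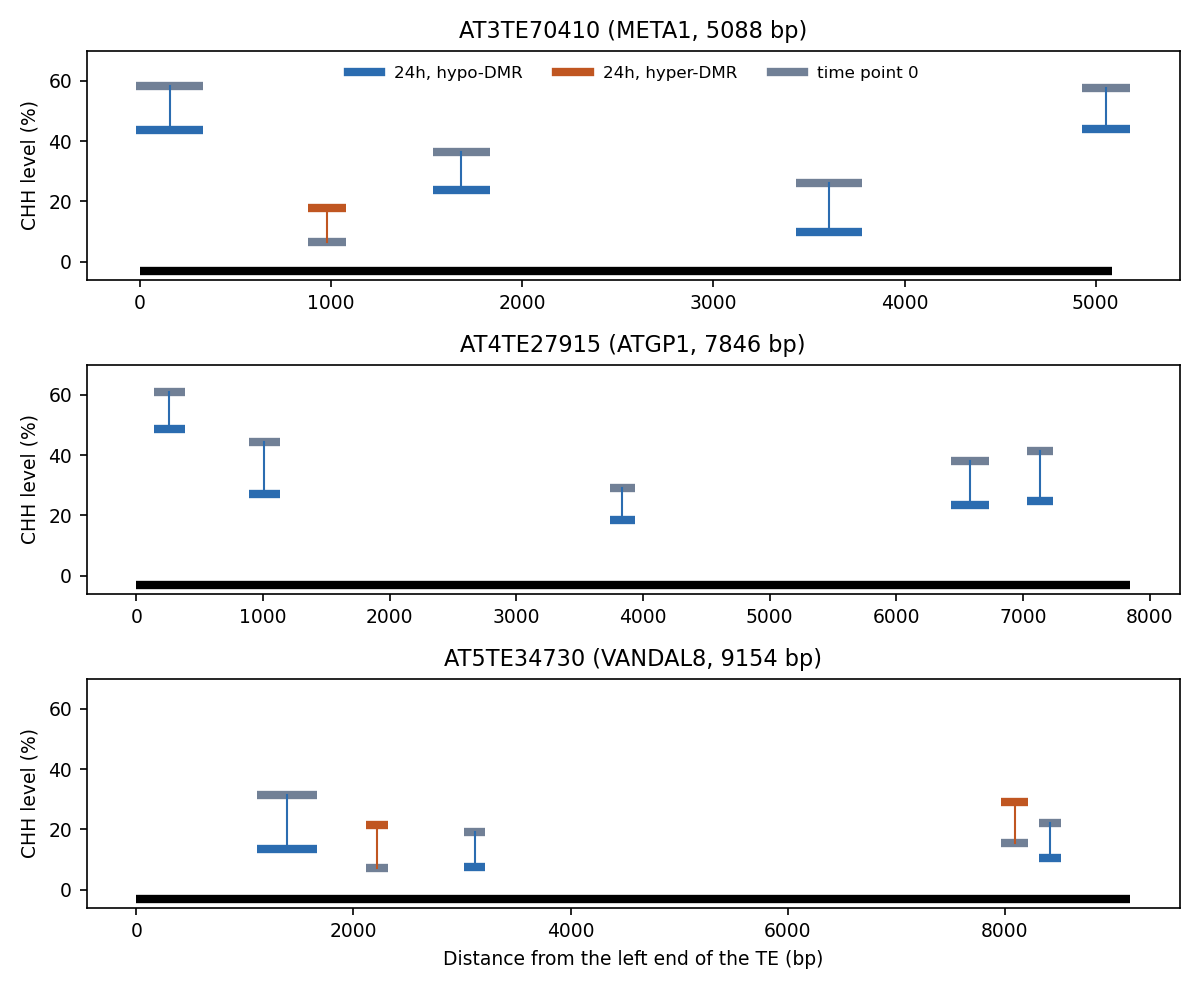
CHH level (%) of the DMRs along the 3 TEs with 5 DMRs each, by distance from the left end of the TE (bp). Horizontal bars span each DMR at its level at 24h (blue for hypo-DMRs, orange for hyper-DMRs) and at time point 0 (grey), and the black bar is the TE. At time point 0 the hypo-DMRs at both ends of META1 (57.7 and 58.4%) and at the left end of ATGP1 (61.0%) are the highest of these 3 TEs.

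In all, 59 TEs held DMRs of both directions, with a median length of 4608 bp. In the nearest pair of each, the hypo-DMR had a median of 16.5% at 24h and 32.3% at time point 0, and the hyper-DMR 25.4% at 24h and 10.2% at time point 0. The hypo-DMR was the higher of the pair in 57 of 59 TEs at time point 0 and in 14 of 59 at 24h, an exchange that the directions of both lists in part fix. The pairs lay a median of 750 bp apart. In the ARNOLDY1 element AT1TE13375 they touched, the hypo-DMR having 25.4% at 24h and 67.7% at time point 0 and the hyper-DMR 46.9% at 24h and 28.5% at time point 0. Of all 431 hyper-DMRs, 75 (17.4%) had a hypo-DMR within 1 kb. Of all 2372 hypo-DMRs, 86 (3.63%) had a hyper-DMR that close, so the shares differ mainly through the size of the lists.

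Hypo-DMRs were more often grouped than hyper-DMRs. With a gap of at most 1 kb, 413 of 2372 hypo-DMRs (17.4%, 15.9 to 19.0%) were in clusters, against 12 of 431 hyper-DMRs (2.78%, 1.45 to 4.81%). The lists differ in size, with a mean spacing of 50230 bp for hypo-DMRs and 276442 bp for hyper-DMRs, so more hypo-DMRs are bound to lie close together. There were 193 clusters of hypo-DMRs, 22 of at least 3, and 6 of hyper-DMRs, all of 2. The largest held 6 hypo-DMRs over 3900 bp with ATHILA2 and ATHILA3 elements at chr1:14339551-14343450, with levels of 6.69 to 14.5% at 24h and 17.3 to 26.4% at time point 0. Another 4 hypo-DMRs at chr1:14981151-14983250 had their midpoints outside annotated TEs (7.30 to 14.1% at 24h and 18.3 to 24.7% at time point 0). A cluster of 4 at chr1:16303501-16306850, not all of them in its only TE with a DMR midpoint, AT1TE53665 (ATREP18), was more uneven (11.003 to 39.96% at 24h and 21.96 to 53.3% at time point 0). Of the 6 pairs of hyper-DMRs, the one in ARNOLDY1 sequence at chr1:13904751-13906100 had 31.01 to 36.7% at 24h and 4.78 to 14.3% at time point 0, and at least 2 others were in ATREP18 sequence. Clustered hypo-DMRs had 15.2% at 24h and 30.5% at time point 0, and single ones 14.3% at 24h and 29.7% at time point 0, a difference that was not tested. Of the clustered ones 53.3% were pericentromeric, and of the single ones 44.6%.

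Protein-coding genes (PCGs) held few DMRs. After TEs were taken first, 99 hypo-DMRs and 18 hyper-DMRs had their midpoint in a PCG. Of 27206 PCGs, 0.5% held a hypo-DMR midpoint (136 genes, TEs inside genes included) and 0.0809% a hyper-DMR midpoint (22 genes). By the reference annotation 59 of the 99 hypo-DMRs were in coding sequence, 13 in untranslated exons and 27 in introns or in parts that matched no exon. Those in coding sequence had 10.1% at 24h and 24.2% at time point 0.

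The largest changes in PCGs were losses. AT3G44440, which codes for an unknown protein, had 2.40% at 24h and 38.4% at time point 0 in coding sequence at chr3:16071051-16071300, a region that also touches a BRODYAGA1A element. AT4G08410, an extensin-like gene of the cell wall, had 2.03% at 24h and 36.1% at time point 0 in coding sequence at chr4:5340401-5340750. HRGP1 (AT3G54590), a hydroxyproline-rich glycoprotein of the cell wall, had 2.30% at 24h and 30.8% at time point 0 in coding sequence at chr3:20206601-20206900. MEE23 (AT2G34790), a berberine bridge enzyme-like oxidase gene named for an embryo arrest of its mutant, had 15.4% at 24h and 44.8% at time point 0 in an intron or a part that matched no exon at chr2:14675951-14676150.

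The fifth, AT5G06630, is also an extensin-like gene and holds the only place where both lists overlap. Its hypo-DMR at chr5:2037351-2037600 had 9.41% at 24h and 37.2% at time point 0. Its hyper-DMR at chr5:2037151-2037450 had 22.3% at 24h and 7.94% at time point 0, and both share 100 bp of coding sequence. The neighbouring EXT10 (AT5G06640), named here after its value was seen, had a hyper-DMR with 30.1% at 24h and 12.5% at time point 0. Extensin genes are built of near-identical repeats and have close paralogs, so reads may be hard to place among them, which was not tested.

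Upstream of genes, 399 hypo-DMRs (16.8%) and 72 hyper-DMRs (16.7%) had their midpoint within 1 kb before a PCG start, where 20.7% of the genome lies. These genes were named after their values were seen. The region with the largest loss, in ATREP10D, lay 235 bp before AT2G13542, a defensin-like gene. The ATREP3 region of AT1TE31770 lay 919 bp before PUP1, a purine and cytokinin transporter. A HELITRONY1D region 410 bp before M17, a gene of late embryogenesis, had 26.0% at 24h and 67.2% at time point 0. Another HELITRONY1D region 292 bp before IBR1, a peroxisomal enzyme of auxin precursor conversion, had 23.6% at 24h and 58.0% at time point 0. The largest upstream gains were before AT1G76200 (42.2% at 24h and 10.7% at time point 0) and AT1G70040 (45.3% at 24h and 13.9% at time point 0).

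None of 32 genes of DNA methylation, demethylation, RdDM, small RNA, photolesion repair and light response, or known to be controlled by methylation, had a DMR inside or within 1 kb. The list included *CMT2*, *DRM2*, *ROS1*, *FWA*, *SDC*, *QQS* and *PHE1*. Across all PCGs 3.7% had a hypo-DMR and 0.691% a hyper-DMR in that reach, and at those shares about 1 gene of such a list would be reached.

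In sequence, hypo-DMRs were slightly richer in CHH sites than all TE sequence. Hypo-DMRs in TEs held 26.5 CHH cytosines per 100 bp on both strands, against 25.05 in all TE sequence, a ratio of 1.06. The median over single hypo-DMRs, divided by the same background, had an interval of 1.04 to 1.07. Hyper-DMRs in TEs held 25.5, a ratio of 1.02, and the interval of their median over that background, 0.958 to 1.04, includes 1. Against TE sequence weighted by the TE groups of each list, the ratio was 1.06 for hypo-DMRs and 1.05 for hyper-DMRs. Both were poorer in symmetric sites. Per 100 bp, hypo-DMRs in TEs held 3.78 CG and 3.63 CHG cytosines and hyper-DMRs in TEs 3.45 and 2.72, against 4.33 and 4.41 in all TE sequence. The share of CHH sites that were CAA or CTA was 29.1% in hypo-DMRs in TEs and 29.0% in hyper-DMRs in TEs, against 29.4% in all TE sequence. GC content was lower in hyper-DMRs, with a median of 32.0% (31.2 to 32.5%), than in hypo-DMRs, with one of 34.0% (34.0 to 34.4%). TT dinucleotides, where most cyclobutane dimers form, were at 27.5 per 100 bp in hyper-DMRs in TEs and 24.7 in hypo-DMRs in TEs, against 24.6 in all TE sequence.

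At the same regions, *uvr3 phrI* hypo-DMRs met hyper-DMRs of other genotypes (61.1% met at least 1) more often than their hypo-DMRs (11.8%). This contrast goes with list size. *ddb2* and *dcl4* plants had 8709 and 6248 CHH hyper-DMRs but 293 and 328 hypo-DMRs, while the lists of *ago1* and WT plants were closer in size. Of the hypo-DMRs, 47.0% (44.9 to 49.0%) overlapped a hyper-DMR of *ddb2*, 35.3% (33.4 to 37.2%) one of *dcl4*, 8.85% one of *ago1* and 5.27% one of WT plants. These lists are of very different size, with *ddb2* hyper-DMRs covering 8.29% of TE sequence and WT hyper-DMRs 0.704%. Such coverage is a share of bases, whereas an overlap counts a region touched by at least 1 bp, so the measures are not directly comparable. As shares of the other lists, 12.8% of the *ddb2*, 13.4% of the *dcl4*, 13.3% of the *ago1* and 11.5% of the WT hyper-DMRs overlapped a *uvr3 phrI* hypo-DMR. Of the hypo-DMRs of these genotypes, 8.53% in *ddb2*, 8.84% in *dcl4*, 9.82% in *ago1* and 10.9% in WT plants did. On this measure the contrast between directions was much smaller. Hypo-DMRs of WT overlapped 4.05% (3.29 to 4.92%) of the *uvr3 phrI* hypo-DMRs, 10.9% of the WT list. The hyper-DMRs of *uvr3 phrI* plants overlapped those of *ddb2* in 45.01% (40.2 to 49.8%), close to the share of the hypo-DMRs, and those of *dcl4* in 25.3% (21.3 to 29.7%), below it. These differences between directions were not tested. In all, 35.5% of the hypo-DMRs overlapped no CHH DMR of another genotype. These had 11.5% at 24h and 24.8% at time point 0, while those with a hyper-DMR elsewhere had 18.1% at 24h and 35.3% at time point 0.

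Photolesion regions of *uvr3 phrI* plants, 999 in number with CPDs and 6,4-photoproducts in 1 list, met few DMRs. They overlapped 20 hypo-DMRs (0.843%) and 7 hyper-DMRs (1.62%), and they cover 0.235% of TE sequence. The overlaps count DMRs touched by at least 1 bp and the coverage counts bases, so these shares are not directly comparable. The paper reports that photolesions and DMRs overlap beyond chance. Whether the photolesion regions met DMRs more often than an even spread would give was not tested here. Among the photolesion regions that met a DMR, the highest enrichment was 18.5-fold over the input of WT plants. That region met a hypo-DMR in AT3TE52120 (LIMPET1) with 21.9% at 24h and 36.6% at time point 0. An enrichment of 8.31-fold met a hyper-DMR in ATREP18 sequence (AT1TE49925) with 41.9% at 24h and 9.72% at time point 0. A region in AT3TE55370 (ATHILA2) lay across a hyper-DMR (31.8% at 24h and 9.32% at time point 0) and a hypo-DMR (14.96% at 24h and 31.9% at time point 0). With at least 50% of the DMR covered, 5 hypo-DMRs and 2 hyper-DMRs remained.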

How the data were processed

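The DMR lists of *uvr3 phrI* plants were deposited as text, in which the authors gave each region's methylation level at 24h and time point 0 as a score on a scale of 0 to 1. Levels are given here as percentages, and the difference was recomputed. The authors used BSMAP on TAIR10, slid windows of 200 bp along the genome to compare 24h with time point 0, joined windows of like change and kept differences of at least 10 points in CHH, 20 in CHG and 40 in CG (Wilcoxon signed-rank test). List names gave the genotypes. The deposited fold enrichment of photolesion regions is a ratio of immunoprecipitated DNA to WT input, made by the authors with Bowtie 1.1.2 and MACS2 2.1. TE and gene positions came from the annotation columns of a deposited small RNA table. The 6 small RNA tables hold 60 value columns that match no sample and were not used here. Time point 0 is placed before UV-C in the results of the paper and after it in its methods, and the plants' age differs between labels and methods.

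Each DMR was given to the shortest TE at its midpoint, then to TE genes, PCGs or intergenic sequence. Densities used the same assignment of bases. TE groups were made from the element names. The expected edge share is the mean share of edge bases over the TEs that held the DMRs. Bins of 100 kb were smoothed over 1 Mb for their PCG coverage, and on each chromosome the longest stretch under 50% of the median bin was called pericentromere. Sequences came from TAIR10.1, where all 27998 genes found by name overlapped their namesake, and 1 DMR ended 94 bp past a chromosome end. Levels had no test, since each time point had 1 library. Named regions were the 5 largest changes per direction, the longest DMRs, all CHG DMRs, the largest clusters, the largest change in each of the 6 TE groups with most DMRs, the 3 TEs with most DMRs, the 5 largest changes inside PCGs, ATCOPIA78 copies and listed genes. The members and lists were chosen with earlier results of these data known. Functions were tested on simulated regions. Calculations used numpy 2.4.6 and scipy 1.17.1 under Python 3.11.15, and plots matplotlib 3.10.9. Alternatives covered the minimum change, merging, assignment, edges, gaps, zones and overlaps.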

Additional observations from a re-analysis of the deposited data

Results flagged for a closer look

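Some regions with the same coordinates and context changed in opposite directions in *uvr3 phrI* and another genotype. Regions that were hypo-DMRs in *uvr3 phrI* plants were hyper-DMRs in *dcl4* plants at 51 places, in *ddb2* at 38, in *ago1* at 14 and in WT at 6. At the 51 regions the median was 20.9% at 24h and 38.3% at time point 0 in *uvr3 phrI*, and 35.7% at 24h and 20.5% at time point 0 in *dcl4* plants. At the 38 regions it was 20.1% at 24h and 41.5% at time point 0 in *uvr3 phrI*, and 34.6% at 24h and 17.7% at time point 0 in *ddb2* plants. At the 14 regions it was 15.7% at 24h and 33.7% at time point 0 in *uvr3 phrI*, and 32.01% at 24h and 15.7% at time point 0 in *ago1* plants, and at the 6 regions 14.2% at 24h and 29.99% at time point 0 in *uvr3 phrI*, and 22.5% at 24h and 8.41% at time point 0 in WT plants. In each of these regions the level at time point 0 was higher in *uvr3 phrI* plants than in the other genotype. At 24h it was higher in *uvr3 phrI* at 1 of the 51 regions shared with *dcl4* and at 0 of those shared with *ddb2*, *ago1* and WT. The choice of regions with opposite directions in part fixes both. The reverse, a hyper-DMR in *uvr3 phrI* and a hypo-DMR in the other, was found at 1 region each with *ddb2*, *dcl4* and *ago1* plants. Other regions of the same coordinates changed in the same direction. Hypo-DMRs in both numbered 11 with WT, 4 with *ago1* and 2 with *dcl4*, and hyper-DMRs in both 3, 4 and 2. The counts go with list size, since *dcl4* and *ddb2* plants had 6248 and 8709 CHH hyper-DMRs but 328 and 293 hypo-DMRs. The difference between genotypes was not tested, since each rests on 1 library per time point.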

How the results depend on the processing

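Of 75 alternatives to 33 values, 38 stayed within the 95% interval of the main value (counts within 1.5 times). For the ratios of CHH sites the interval was first centred on the main ratio. The weighted ratio of hyper-DMRs, 1.05, was counted as within it, though it lies outside the interval of 0.958 to 1.04 given above. Some density ratios crossed 1, the level of all TEs: ATREP and HELITRON at 15 points, CACTA in the arms and ATHILA in both zones, of which only ATREP has an interval above 1. No paired analysis was possible because each time point had 1 library, and no replicate could be left out. The cause of the shifts was not tested, apart from those that a stricter minimum makes by leaving out small changes.

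With at least 15 points, 1166 DMRs were left, and with at least 20 points 492, with 84.2 and 85.4% hypo-DMRs. With at least 15 points the median levels were 16.8% at 24h and 37.7% at time point 0 for hypo-DMRs and 30.7% at 24h and 10.1% at time point 0 for hyper-DMRs. The share left from 20 to 30, 40 to 50 and 60 to 70% was then 30.7, 54.9 and 63.0%, where the stricter minimum itself lowers the first bin most, the density over all TEs 1.37 in ATREP, 1.08 in HELITRON, 0.213 in CACTA and 0.301 in ATHILA elements, the median TE length of hypo-DMRs 1177 bp, and the clustered share 8.66% for hypo-DMRs and 1.09% for hyper-DMRs.

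Within the pericentromere the density ratios were 0.953 in ATREP, 1.04 in VANDAL and ATMU and 1.01 in ATHILA elements, and in the arms 0.628 in ATREP, 1.70 in VANDAL and ATMU, 1.25 in CACTA and 1.12 in ATHILA elements. Assignment by any overlap gave a median TE length of 1382 bp for hypo-DMRs. The ratio of edge to even share for hypo-DMRs was 1.61, against 1.42 with edges of 300 bp and 1.83 in TEs of at least 2000 bp. With a gap of 500 bp, 10.9% of hypo-DMRs and 0.464% of hyper-DMRs were clustered, and with 2 kb 26.2% of hypo-DMRs.

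With at least 50% of a hypo-DMR covered, the overlaps were 3.08% with WT hypo-DMRs, 4.13% with WT, 42.6% with *ddb2*, 29.5% with *dcl4* and 7.04% with *ago1* hyper-DMRs, and 3.79% with *ago1* hypo-DMRs, and 5 hypo-DMRs and 2 hyper-DMRs met photolesion regions.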
